A study of Mus musculus with 8 samples.

Results

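Notch receptors, ligands and Hey genes were examined in the ascending aorta of Fbn1mgR/mgR and wild-type mice. The set held 9 genes: the receptors Notch1, Notch2, Notch3 and Notch4, the ligands Jag1 and Dll4, and the target genes Hey1, Hey2 and Heyl. They were taken by gene symbol, as the brightest row per gene among rows that carry a single symbol, from 30142 genes with such a row. Each of the 9 had 1 row, and all 9 were bright enough to be tested. The arrays came from 10-week-old male mice, 4 of them Fbn1mgR/mgR (mgR611, mgR612, mgR613 and mgR614) and 4 wild-type (WT675, WT676, WT742 and WT744), bred from Fbn1mgR/+ parents on a C57BL/6J background. Fibrillin-1, the product of Fbn1, builds the microfibrils around elastic fibres, and the mgR allele, which lowers its expression, is used as a model of Marfan syndrome with aortic aneurysm. Fbn1 itself was not analysed here. The labels do not say that each sample came from a separate animal, so the spread behind each p-value is the one among these samples and may be technical.

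A Notch receptor is cut by a metalloprotease and then by gamma-secretase when a Jagged or Delta-like ligand on a neighbouring cell binds it. The freed intracellular domain enters the nucleus, joins the DNA-binding protein RBPJ and a Mastermind coactivator, and switches on target genes, among them the Hes and Hey transcriptional repressors. In arteries Dll4, Notch1 and Notch4 are known from endothelium, Notch3 from smooth muscle and pericytes, Notch2 and Heyl from smooth muscle, and Jag1, Hey1 and Hey2 from both layers.

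Values are log2 signals, on which 1 unit is a doubling. Signals of different genes come from different probes and cannot be ranked against each other. Olfactory receptor genes, which gave dim signals here, had a 95th percentile of 4.11, and every value of the 9 genes lay above it. Smooth muscle actin, Acta2, was at 19.14 to 19.49 in Fbn1mgR/mgR arrays and 19.49 to 19.57 in wild-type arrays, near the highest value in the table, 19.93, and the endothelial gene Pecam1 was at 12.62 to 14.13 and 13.98 to 14.44, so both layers of the wall were present in both genotypes. Because the tissue was measured in bulk, fewer cells of a type and less RNA per cell cannot be told apart.

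The promoters of Hey2 and Notch3 are printed because the results turn on these genes, one being the target gene and the other the receptor with the smallest p-values. Each runs from 250 bases before to 50 bases after the gene's start, 5′ to 3′ on the gene's strand, from RefSeq (GRCm38.p6). Hey2 lies at chr10:30842734-30843033 on the minus strand and Notch3 at chr17:32166841-32167140 on the minus strand. Capitals mark the letters CGTGGGAA or, on the other strand, TTCCCACG, a sequence that RBPJ binds.
Hey2: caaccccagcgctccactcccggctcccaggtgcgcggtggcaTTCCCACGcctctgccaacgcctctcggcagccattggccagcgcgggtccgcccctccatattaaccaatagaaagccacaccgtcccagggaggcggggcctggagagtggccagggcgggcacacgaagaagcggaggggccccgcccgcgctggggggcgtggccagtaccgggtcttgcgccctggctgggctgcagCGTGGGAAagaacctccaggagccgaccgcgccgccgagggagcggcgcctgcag
Notch3: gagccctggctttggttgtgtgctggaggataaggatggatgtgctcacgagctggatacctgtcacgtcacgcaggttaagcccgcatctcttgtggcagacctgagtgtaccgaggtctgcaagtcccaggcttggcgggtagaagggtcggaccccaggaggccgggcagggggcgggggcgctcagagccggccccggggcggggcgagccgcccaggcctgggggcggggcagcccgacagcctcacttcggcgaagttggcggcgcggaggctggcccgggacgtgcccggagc
The Hey2 promoter held these letters 2 times, once on each strand. One copy lay 207 to 200 bases before the start, and the other began 5 bases before the start and ended 3 bases into the transcript. Of 32851 promoters of the same length, 0.734% held CGTGGGAA on either strand and 1.86% held TGTGGGAA, the other common form. Of the 9 genes, 7 had a promoter sequence, and those of Notch1, Notch2, Notch3, Notch4, Jag1 and Dll4 held neither form. A match is a description of the letters only.

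Among the 9 genes, Notch3 was the 1 that passed the test between genotypes, and it was higher in the Fbn1mgR/mgR aorta (limma, adjusted p under 0.05 over 32957 rows). That threshold called 1.54% of all tested rows higher and 0.558% lower in Fbn1mgR/mgR. None of the 9 passed as lower. Without adjustment, 1 of them, Hey2, was lower in limma at the 0.05 level, which 6.72% of all tested rows reached in that direction. The median difference of the 9 genes was -0.11, and that of all tested rows was -0.018. The remaining 7 genes had overlapping genotypes and unadjusted p-values of 0.238 or more.

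**Figure D1:**
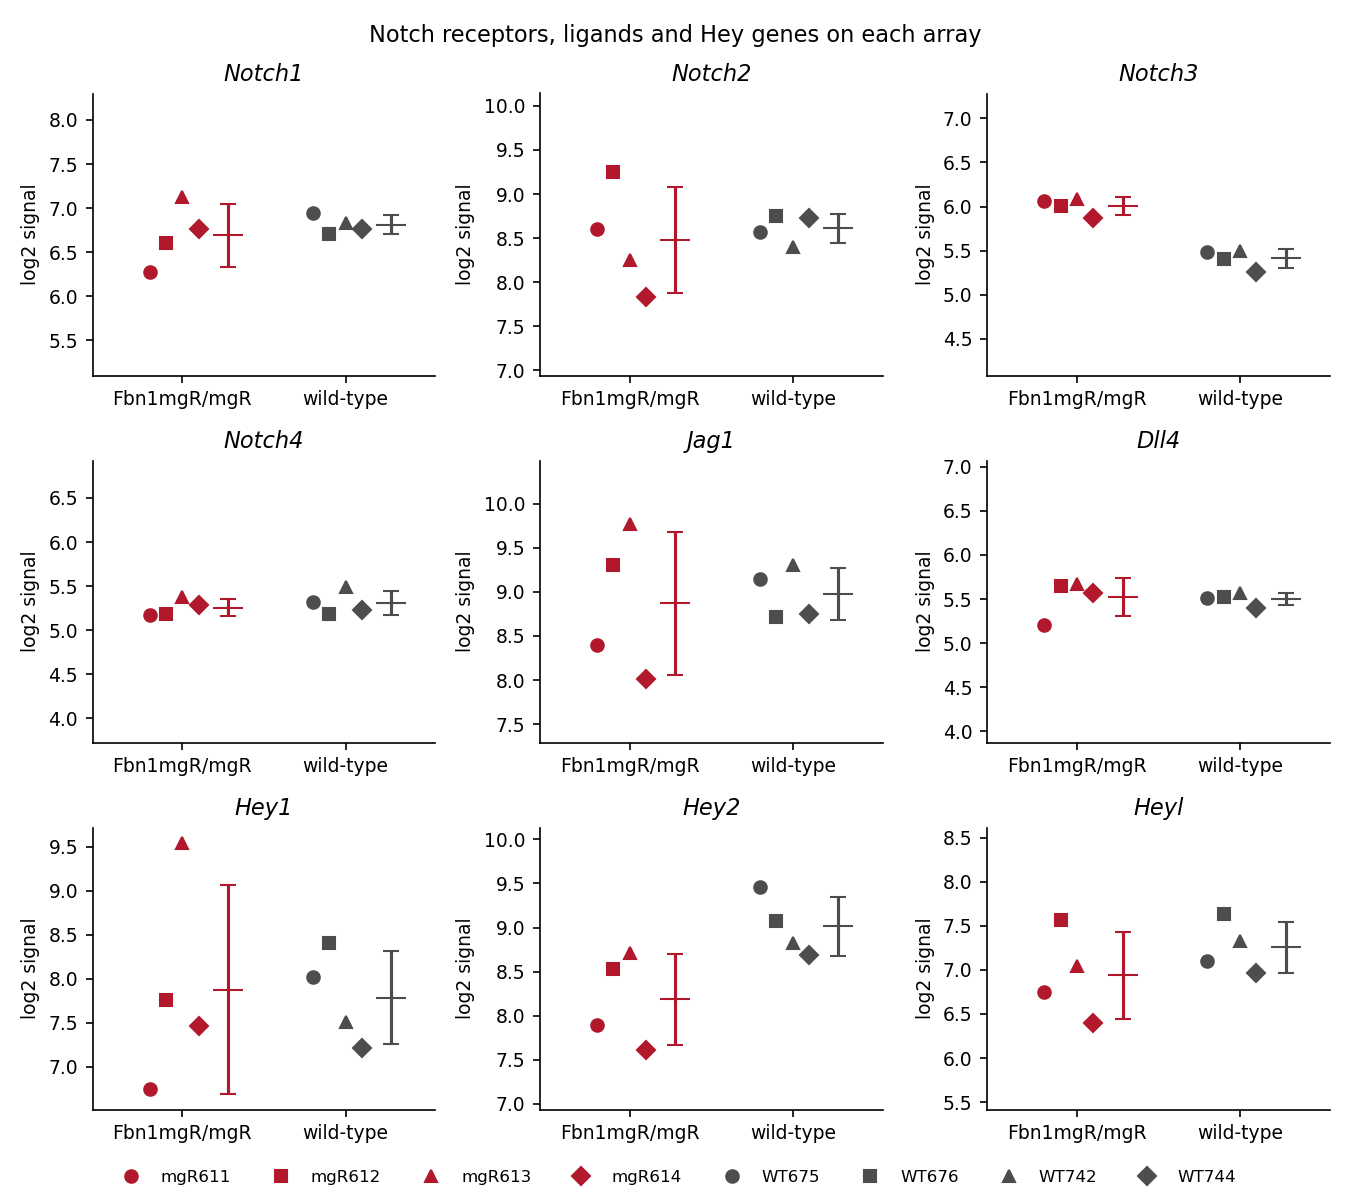
Log2 signal (vertical axes, each spanning the same number of log2 units) of the 9 genes in 4 Fbn1mgR/mgR arrays (red, left) and 4 wild-type arrays (grey, right); each symbol is 1 array, and the bar beside it is the mean with the SD. Notch3 is the gene whose 4 mutant arrays, at 5.87 to 6.09, all lie above the wild-type arrays, at 5.26 to 5.50.

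Notch3, the receptor of vascular smooth muscle and pericytes whose human gene is mutated in the small-vessel disease CADASIL, had log2 signals of 6.06, 6.01, 6.09 and 5.87 in mgR611, mgR612, mgR613 and mgR614, against 5.48, 5.41, 5.50 and 5.26 in WT675, WT676, WT742 and WT744. All 4 mutant arrays lay above all 4 wild-type arrays, a separation in this direction that 5.26% of tested rows showed. The means were 6.01 ± 0.097 in Fbn1mgR/mgR and 5.41 ± 0.109 in wild-type arrays (SD, n = 4 each), a difference of 0.60 (SE 0.105, 95% interval 0.36 to 0.83, limma adjusted p = 0.0227), or 1.51-fold. Notch3 was near the threshold when 7 arrays were used. It missed it without mgR611, mgR612, mgR613, WT675, WT676 or WT744 (limma adjusted p = 0.0511, 0.0539, 0.0651, 0.0567, 0.0640 and 0.0787) and passed it without mgR614 or WT742 (0.0343 and 0.0477), while the difference stayed between 0.54 and 0.64.

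Notch1, which carries ligand signals in arterial endothelium, had signals of 6.27, 6.61, 7.13 and 6.76 in mgR611 to mgR614, against 6.95, 6.71, 6.83 and 6.76 in WT675, WT676, WT742 and WT744. The mutant arrays lay on both sides of the wild-type arrays. The difference was -0.12 (SE 0.177, 95% interval -0.52 to 0.28, limma adjusted p = 0.845).

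Notch2, a second receptor of arterial smooth muscle, had signals of 8.60, 9.25, 8.25 and 7.83 in mgR611 to mgR614, against 8.57, 8.75, 8.40 and 8.73 in WT675, WT676, WT742 and WT744. Array mgR612 was above and mgR613 and mgR614 were below all wild-type arrays. The difference was -0.13 (SE 0.270, 95% interval -0.74 to 0.48, limma adjusted p = 0.897). Notch4, an endothelial receptor, had signals of 5.17, 5.19, 5.38 and 5.29 in the mutant arrays in the same order, against 5.32, 5.19, 5.49 and 5.23 in the wild-type arrays. These ranges overlapped almost fully, and the difference of -0.05 had a 95% interval of -0.29 to 0.19 (SE 0.106, limma adjusted p = 0.900).

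The difference of receptor signals within each array is given as a description, with no test, because Notch3 was taken for it after its own change was known. Notch3 minus Notch4 was 0.58 to 0.89 in Fbn1mgR/mgR and 0.01 to 0.22 in wild-type arrays (log2). Notch3 minus Notch1 was -1.04 to -0.21 in Fbn1mgR/mgR and -1.50 to -1.30 in wild-type arrays. Neither overlapped between genotypes, while Notch3 minus Notch2, at -3.24 to -1.96 in Fbn1mgR/mgR and -3.47 to -2.90 in wild-type arrays, did. Notch3 alone already separated the genotypes, and the share of all gene pairs that do so was not computed. The separation of these differences is therefore not read as a further result.

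**Figure D2:**
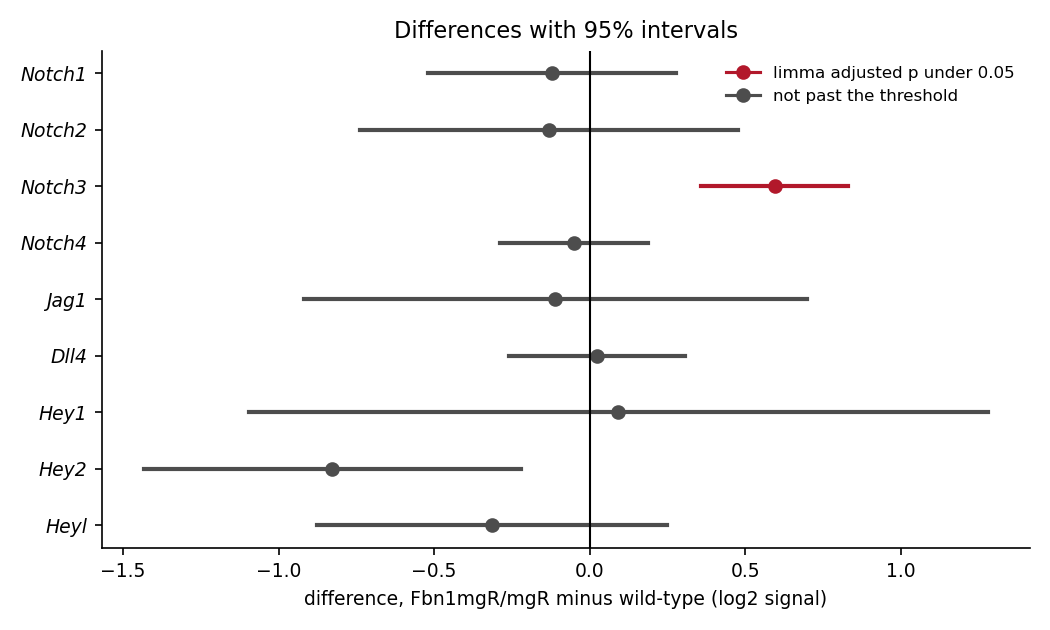
Difference between genotype means in log2 signal (horizontal axis, Fbn1mgR/mgR minus wild-type) for the 9 genes, with 95% intervals from limma that are not adjusted for the number of rows tested. The interval of Notch3 lies above 0 at 0.36 to 0.83, that of Hey2 below 0 at -1.43 to -0.22, and the other 7 include 0.

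The ligand Jag1, which signals from endothelium to smooth muscle and along the smooth muscle layers, had signals of 8.40, 9.30, 9.77 and 8.01 in mgR611 to mgR614, against 9.15, 8.71, 9.31 and 8.75 in WT675, WT676, WT742 and WT744. One mutant array (mgR613) was above and 2 (mgR611 and mgR614) were below all wild-type arrays. The difference was -0.11 (SE 0.359, 95% interval -0.92 to 0.70, limma adjusted p = 0.938), so these arrays do not settle a difference of that size in either direction. Dll4, the Delta-like ligand of arterial endothelium, had signals of 5.20, 5.65, 5.67 and 5.57 in the mutant arrays, against 5.51, 5.52, 5.57 and 5.40 in the wild-type arrays. Its difference was 0.02 (SE 0.126, 95% interval -0.26 to 0.30, limma adjusted p = 0.968).

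The Hey genes encode basic helix-loop-helix repressors that Notch signalling induces. Hey2, the member that marks arterial identity and is also made by smooth muscle, had signals of 7.89, 8.53, 8.71 and 7.61 in mgR611 to mgR614, against 9.46, 9.07, 8.83 and 8.69 in WT675, WT676, WT742 and WT744. The mutant arrays lay below the wild-type arrays except that mgR613, at 8.71, was just above WT744, at 8.69. The means were 8.19 ± 0.520 in Fbn1mgR/mgR and 9.01 ± 0.337 in wild-type arrays (SD, n = 4 each). The difference of -0.83 (limma, SE 0.270, 95% interval -1.43 to -0.22), or 0.564-fold, did not pass the threshold over all rows (limma adjusted p = 0.189).

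Hey1, the relative of Hey2 that acts with it in arterial development, had signals of 6.75, 7.76, 9.54 and 7.46 in mgR611 to mgR614, against 8.02, 8.40, 7.51 and 7.21 in WT675, WT676, WT742 and WT744. Array mgR613 stood above every other array and mgR611 below every other array. With an SD of 1.19 in Fbn1mgR/mgR and 0.529 in wild-type arrays, the difference of 0.09 had a 95% interval of -1.09 to 1.28 (SE 0.528, limma adjusted p = 0.969). Without mgR613 the difference was -0.46 (limma adjusted p = 0.668), and without mgR611 it was 0.47 (limma adjusted p = 0.768).

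Heyl, the Hey gene of smooth muscle and pericytes, had signals of 6.75, 7.57, 7.04 and 6.40 in mgR611 to mgR614, against 7.10, 7.63, 7.33 and 6.96 in WT675, WT676, WT742 and WT744. Arrays mgR611 and mgR614 were below all wild-type arrays. The difference was -0.32 (SE 0.250, 95% interval -0.88 to 0.25, limma adjusted p = 0.658).

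Within arrays, and again as a description, Hey2 minus Hey1 was -0.83 to 1.14 in Fbn1mgR/mgR and 0.67 to 1.48 in wild-type arrays (log2). Hey2 minus Heyl was 0.96 to 1.67 in Fbn1mgR/mgR and 1.44 to 2.36 in wild-type arrays. Both overlapped between genotypes.

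The mutant arrays varied more among themselves than the wild-type arrays for most of these genes. The SD over 4 arrays was larger in Fbn1mgR/mgR for 7 of the 9 genes, with a median SD of 0.495 in Fbn1mgR/mgR and 0.163 in wild-type arrays. Over all tested rows the mutant SD was the larger in 54.1%, and the median SDs were 0.207 and 0.191. The exceptions were Notch3 and Notch4. Among the mutant arrays, mgR613 had the highest signal for 7 of the 9 genes and mgR612 for the other 2, and the lowest signal was in mgR614 for 5 genes and in mgR611 for 4. How often each array was highest or lowest over all tested rows was not computed.

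**Figure D3:**
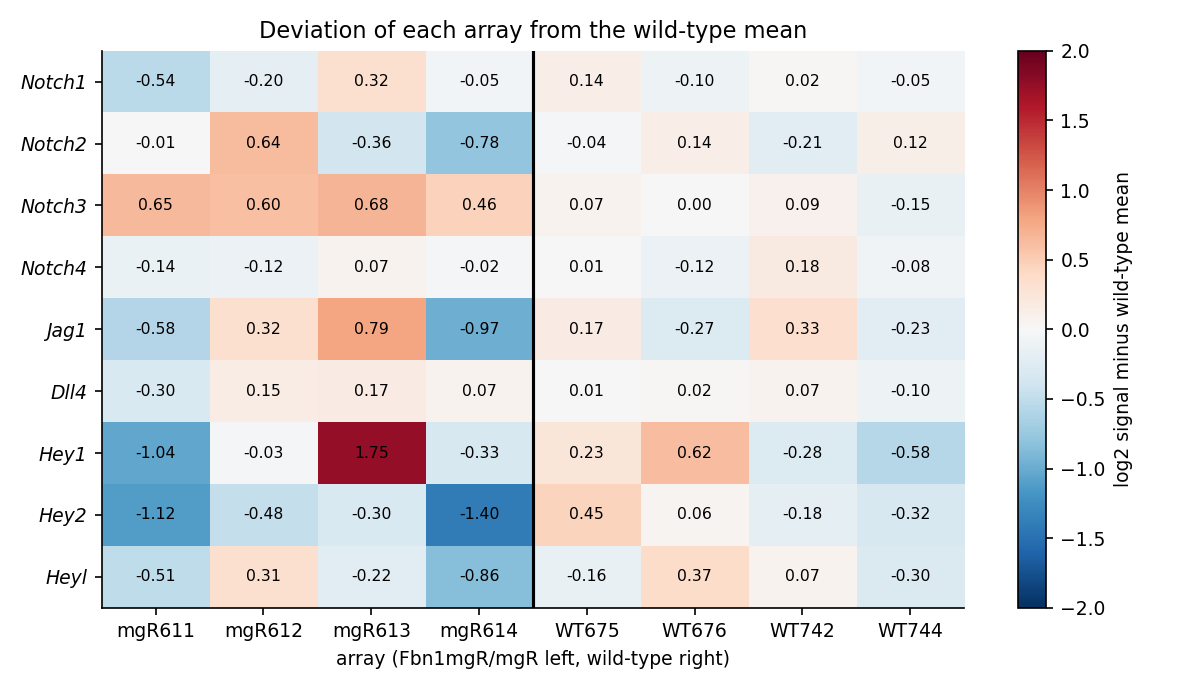
Log2 signal of each array minus the wild-type mean of the gene (colour and printed number) for the 9 genes (rows) on 4 Fbn1mgR/mgR arrays (left of the line) and 4 wild-type arrays (right). Notch3 is red on all 4 mutant arrays and Hey2 blue on all 4, while Jag1 and Hey1 have both colours and their highest signal in mgR613.

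After each genotype mean was taken off, 30 of the 36 pairs among the 9 genes had a Pearson correlation above 0 over the 8 arrays. The highest were Jag1 with Hey2 (0.83) and Notch1 with Hey1 (0.82), and the lowest was Notch2 with Notch4 (-0.57). These values describe 8 arrays that share their RNA sample across genes. The share of positive pairs among all tested genes was not computed, so the count is not read as a result about these 9 genes. The genes most like each member by the same measure, out of 17868, were Gm14388 and Poglut1 for Notch1, Tcf7l1 and Olfr655 for Notch2, Setd6 and Clic1 for Notch3, and Gch1 and Mypop for Notch4. For Jag1 they were Dnajc18 and Scrn1, for Dll4 Fes and Rps12-ps10, for Hey1 Matr3 and Fbh1, for Hey2 Cfdp1 and Frg1, and for Heyl Hs6st1 and Itih5. Their correlations lay between 0.953 and 0.996. Values picked as the highest out of 17868 genes over 8 arrays are high through that choice, so they are a description only and do not show a link.

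Cell type markers moved between these arrays as well. Of 18 endothelial markers, 1 passed as lower in Fbn1mgR/mgR, the transcription factor gene Erg (-1.21, limma adjusted p = 0.0447), and none as higher, while 6 were lower and 0 higher in limma before adjustment (p under 0.05). The median difference of this list was -0.33. The mean signal of the list was 8.04, 8.57, 8.96 and 8.11 in mgR611 to mgR614, against 9.15, 8.95, 8.85 and 8.41 in the wild-type arrays, and its log2 summed signal was 13.9 to 15.1 against 14.7 to 15.3. Array mgR613, highest for 7 of the 9 Notch genes among the mutant arrays, was also highest for the endothelial mean, and mgR611 and mgR614, lowest for the Notch genes, were lowest for it. Among wild-type arrays, WT742 was highest for 4 Notch genes, WT676 for 3 and WT675, which had the highest endothelial mean, for 2. WT744, lowest for 5 Notch genes, had the lowest endothelial mean. WT676 was lowest for 3 Notch genes and WT742 for 1, although the endothelial mean was higher in WT676 than in WT742. The share of all tested rows with these orders was not computed, and a link was not tested.

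With the endothelial mean as a covariate, the difference of Hey2 was -0.37 (SE 0.180, limma adjusted p = 0.438) and that of Notch3 was 0.67 (SE 0.120, limma adjusted p = 0.0442). Under the same covariate the difference of Hey1 was 1.01 (SE 0.336, limma adjusted p = 0.251), against 0.09 without it. Of 12 smooth muscle markers, none passed the limma threshold, and before adjustment 4 were lower and 0 higher (p under 0.05). Averaged, they gave 12.9, 12.6, 12.5 and 11.8 in mgR611 to mgR614, against 12.6, 12.8, 13.4 and 13.2 in the wild-type arrays, and their log2 summed signal was 19.7 to 20.2 against 20.1 to 20.4. With this mean as a covariate, the difference of Notch3 was 0.64 (SE 0.133) and missed the threshold (limma adjusted p = 0.0828), and that of Hey2 was -0.83 (SE 0.349, limma adjusted p = 0.397).

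Of 7 pericyte markers tested, none passed in limma, and before adjustment 2 were lower and 0 higher (p under 0.05). Their log2 summed signal was 13.1 to 13.9 in Fbn1mgR/mgR and 13.2 to 13.7 in wild-type arrays. The lower ones were Rgs5 (-0.98) and Abcc9 (-0.81), while Pdgfrb, the growth factor receptor of mural cells, differed by 0.05. Kcnj8, Cspg4, Mcam and Anpep differed by 0.21, 0.18, 0.17 and 0.235, and the median difference of the list was 0.17. All 13 macrophage markers passed as higher in Fbn1mgR/mgR, with a log2 summed signal of 15.6 to 16.7 against 13.5 to 14.3. Their mean separated the genotypes, so its part in the rise of Notch3 and the signals of the other genes cannot be told apart from genotype. Brown fat markers varied within both genotypes, with a log2 summed signal of 11.5 to 16.6 in Fbn1mgR/mgR and 10.2 to 16.8 in wild-type arrays, and with their mean as a covariate Notch3 kept its call (0.59, limma adjusted p = 0.0303).

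Some lymphatic endothelial markers also differed between genotypes. Of 6 tested, 1 passed as higher (Lyve1, 1.97, limma adjusted p = 0.00971) and none as lower, and before adjustment 4 were higher and 0 lower (p under 0.05). Prox1 (0.555) and Flt4 (0.69) were not among the 4, and their genotypes overlapped (limma adjusted p = 0.589 and 0.436). Reln, 1 of the 4, had a wild-type mean of 3.99, below the mean signal needed for testing, 4.01. It was tested only through the mutant arrays, with a mean of 4.49, and is not read as a result. The median difference of this list was 0.79. Its mean signal was 8.16, 8.96, 9.44 and 8.55 in mgR611 to mgR614, against 7.93, 8.0, 7.78 and 7.44 in the wild-type arrays, with no overlap and the highest value in mgR613, and its log2 summed signal was 13.6 to 14.2 against 12.3 to 12.8. The part of these markers in the signals of the Notch genes was not tested.

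Of 9 fibroblast markers, 1 passed as higher (Col1a1, 0.98, limma adjusted p = 0.00837), and before adjustment 3 were higher and 0 lower (p under 0.05). Col1a2 (0.365) and Dpep1 (0.82) were also among the 3. Lum and Col3a1 differed by 0.12 and 0.255, and Dcn, Dpt, Pi16 and Cd34 by -0.16, -0.25, -0.355 and -0.23. The median difference of this list was 0.12. Its log2 summed signal was 19.4 to 19.9 in Fbn1mgR/mgR and 19.7 to 19.9 in wild-type arrays. None of 6 adipocyte, 7 mesothelial, 6 heart and skeletal muscle, 1 Schwann cell and 1 red blood cell markers passed in limma, with 2 mesothelial markers lower and none of the others past an unadjusted p of 0.05.

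**Figure D4:**
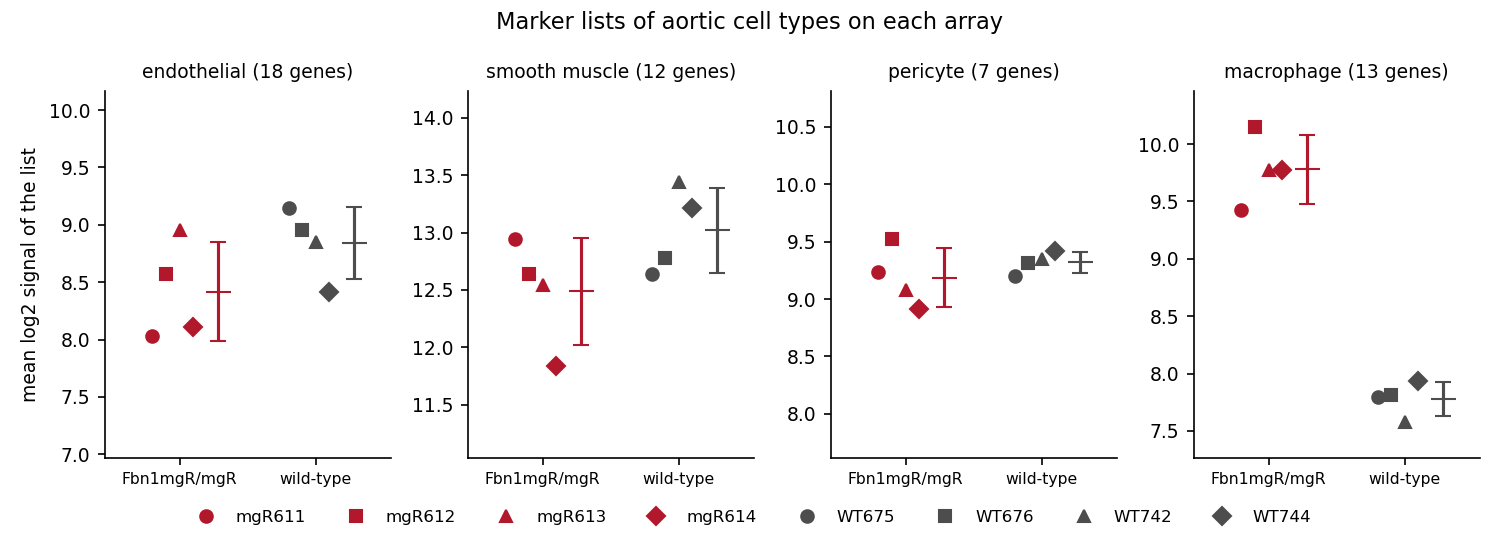
Mean log2 signal of 4 marker lists (vertical axes) on each Fbn1mgR/mgR array (red, left) and wild-type array (grey, right), with the mean and SD of each genotype beside the points. The macrophage means do not overlap between genotypes, while endothelial, smooth muscle and pericyte means overlap.

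Other genes of the pathway were described from lists of 94 genes by role, of which 88 had a row with a single symbol and 78 were tested. One of the 78 rose, the target gene Cdkn1a, and 0 fell in limma. Before adjustment 11 were higher and 7 lower (p under 0.05), levels that 7.45% and 6.72% of all tested rows reached. The 11 include Snai1, which was tested only through its mutant arrays, as its wild-type mean of 3.795 was below the limit, 4.01. The median difference of the 78 genes was -0.015. In either direction, 2.1% of all tested rows passed the threshold.

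Cdkn1a encodes the cell cycle inhibitor p21, which NOTCH1 induces in mouse keratinocytes and which p53 also induces. Its signals were 12.78, 11.59, 12.12 and 11.25 in mgR611 to mgR614, against 9.96, 10.12, 10.16 and 9.92 in WT675, WT676, WT742 and WT744. All mutant arrays were above all wild-type arrays, a separation in this direction that 5.26% of tested rows showed. The difference was 1.90 (SE 0.290, limma adjusted p = 0.0116), or 3.72-fold, and with the endothelial mean as a covariate it was 1.88 (limma adjusted p = 0.0585).

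None of the other 13 tested target genes passed in limma, and before adjustment 3 were higher and 3 lower (p under 0.05). Snai1, a repressor of epithelial genes and 1 of the 3 higher ones, had signals of 4.38, 3.95, 4.27 and 4.37 in mgR611 to mgR614, against 3.95, 3.78, 3.74 and 3.71 in WT675, WT676, WT742 and WT744. Its wild-type signals lay below the olfactory receptor level of 4.11, and its mean over the 8 arrays, 4.02, was just above the limit for testing, 4.01, through the mutant arrays, so its adjusted p in limma (0.0881) is not read as a result. Bhlhe41, a repressor linked to the circadian clock, differed by -0.74 (limma adjusted p = 0.101). Hes1, the best known Hes target, had a difference of 0.21 (SE 0.132, limma adjusted p = 0.550). Efnb2, which marks arterial endothelium, differed by 0.24 (limma adjusted p = 0.648), and Gja5, a connexin of arterial endothelium, by -1.01 (SE 0.396, limma adjusted p = 0.284). Hes5 and the feedback inhibitor gene Nrarp were too dim to be tested, at 3.50 ± 0.035 and 3.45 ± 0.139 in Fbn1mgR/mgR against 3.55 ± 0.051 and 3.46 ± 0.261 in wild-type arrays (SD, n = 4 each).

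In the transcription complex, none of 8 genes passed in limma, and before adjustment 1 was higher and 2 were lower (p under 0.05). Rbpj, the DNA-binding partner of the receptor's intracellular domain, had signals of 8.35, 8.72, 8.76 and 8.71 in mgR611 to mgR614, against 8.15, 8.15, 8.18 and 8.14 in WT675, WT676, WT742 and WT744. All mutant values were higher, a separation in this direction that 5.26% of tested rows showed. The difference of 0.48 (SE 0.132) had a limma adjusted p of 0.116. It was 0.0437 without an intensity trend in the variance, which was the only 1 of 23 settings (the main fit and 22 alternatives) in which Rbpj passed. The histone acetyltransferase gene Kat2b, a coactivator, had signals of 8.15, 8.68, 8.74 and 8.51 in the mutant arrays, against 9.05, 9.07, 9.09 and 9.05 in the wild-type arrays. All mutant values were lower, a separation that 3.65% of tested rows showed in this direction, with a difference of -0.55 (SE 0.151, limma adjusted p = 0.121). The Mastermind gene Maml2 differed by -0.51 (limma adjusted p = 0.264).

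The machinery that glycosylates, cleaves and sorts receptors held no gene past the threshold. Among 6 glycosylation genes, 1 was higher and none lower in limma before adjustment (p under 0.05), namely Lfng, the Fringe enzyme that tunes which ligands a receptor answers, at 0.29 (limma adjusted p = 0.189). Mfng and Poglut1 differed by -0.18 and -0.12. Of 9 cleavage genes, among them Adam10, Adam17 and the gamma-secretase subunits, 0 had an unadjusted p under 0.05 in limma, and Psen2, Aph1b and Adam17 differed by 0.22, -0.37 and 0.17. Of 18 genes of endocytosis and degradation, 3 were higher and 1 lower before adjustment (p under 0.05). The ubiquitin ligase gene Neurl3, of the Neuralized family, had signals of 7.35, 8.41, 8.46 and 8.52 in mgR611 to mgR614, against 6.91, 7.35, 6.98 and 6.92 in WT675, WT676, WT742 and WT744. Its lowest mutant value equalled its highest wild-type value, and the difference of 1.15 (SE 0.259) had a limma adjusted p of 0.0604. It was 0.00331 without mgR611, the array with the lowest mutant value, whose removal can only widen the gap between the genotype means. Neurl3 passed with no other single array left out, and in 5 of 23 settings in all. Dtx4 and Nedd4 differed by 0.36 and -0.33 (limma adjusted p = 0.319 and 0.278).

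Among corepressors, none of 13 genes passed in limma, 0 of them even before adjustment, and Tle3, L3mbtl3 and Cir1 differed by 0.25, -0.21 and -0.32. The other ligands had 3 tested genes, Dll1 (-0.16), Cntn6 (-0.12) and Jag2 (0.04), none of which passed or reached an unadjusted p of 0.05 in limma. Of 7 extracellular proteins that have been reported to bind or modulate Notch receptors or ligands, none passed in limma, and before adjustment 2 were higher and 1 lower (p under 0.05). The matrix proteins encoded by Postn and Thbs2 differed by 0.87 and 0.74 (limma adjusted p = 0.153 and 0.229), and Mfap2, which encodes a microfibril-associated glycoprotein, by -0.50 (limma adjusted p = 0.264).

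**Figure D5:**
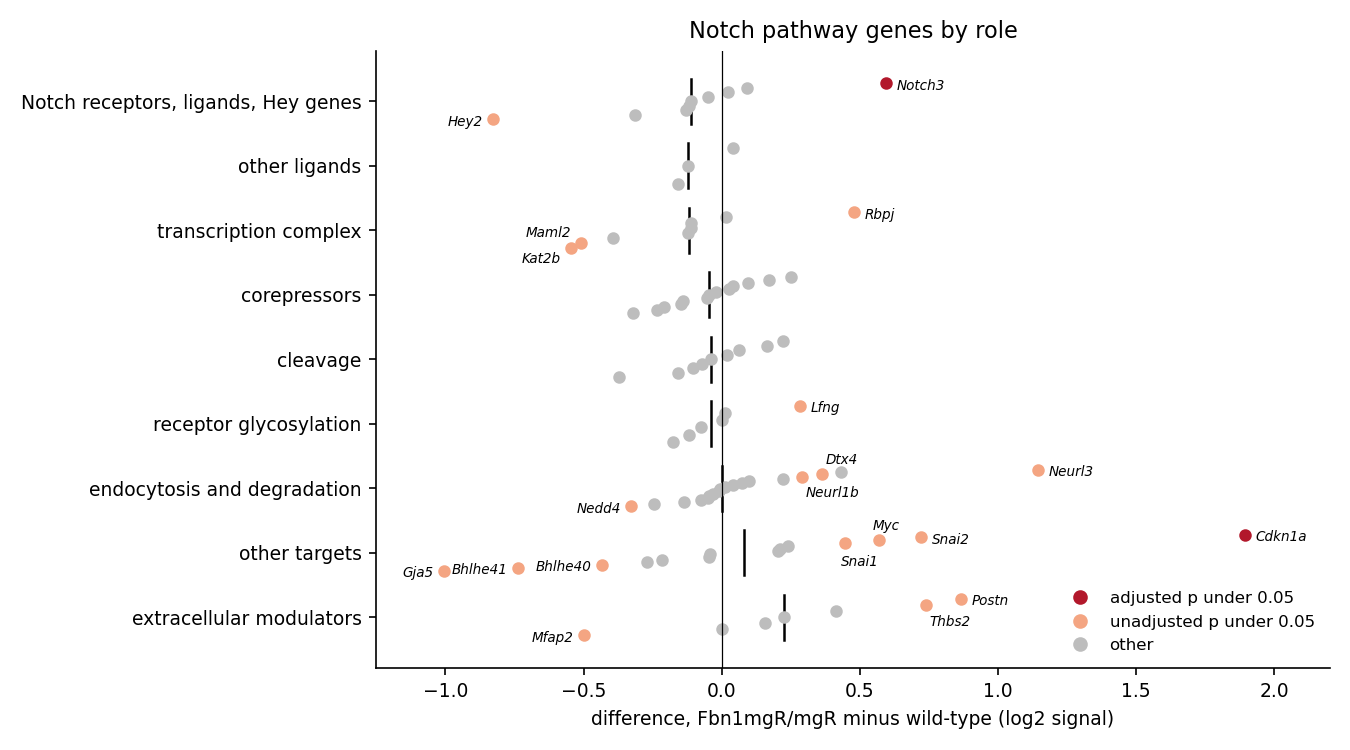
Difference in log2 signal (horizontal axis, Fbn1mgR/mgR minus wild-type) of each tested Notch pathway gene by role (rows), with the median of each list as a black bar; dark red marks an adjusted p under 0.05 and orange an unadjusted p under 0.05. Notch3, at 0.60, and Cdkn1a, at 1.90, are the dark red points.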

How the data were processed

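The values were log2 signals per row (transcript cluster) of 8 Affymetrix Clariom D mouse arrays, as deposited by the authors, already normalized. Per the submitters' processing notes they came from the Transcriptome Analysis Console. How they were normalized and summarised over probes is not stated in the labels. The number of arrays limits the precision. Array medians were 3.95 to 4.07.

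Of 65956 rows, 30604 carried 1 gene symbol in the platform annotation (repeats of a symbol counted once), 2146 several and 33206 none; 827 symbols were updated through RefSeq (GRCm38.p6). Groups came from the labels. Differences are Fbn1mgR/mgR minus wild-type, from limma 3.58.1 in R 4.3.3 (lmFit on all rows, eBayes with an intensity trend), with Benjamini-Hochberg adjustment over the 32957 rows whose mean exceeded the median of row means (4.01) and a threshold of 0.05. On simulated data for this comparison (32957 rows tested) the fit recovered 68% of 100 changes of 1 log2 unit and 98% of 100 changes of 2, and it called 15 unchanged rows.

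The members and gene lists were chosen with earlier results of these data known. Named were all members, up to 3 genes per pathway list with the smallest p and every gene past the threshold, and the 2 genes most like each member. Other genes given as background on the wall or the pathway (among them Acta2, Pecam1, Hes1, Efnb2, Gja5, Hes5 and Nrarp) were chosen after their values were seen. Alternatives covered variance moderation, array weights, filters, normalization, marker means as covariates and each array left out. Python 3.11.15 read the files.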

Additional observations from a re-analysis of the deposited data

Results flagged for a closer look

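In 4 of 66 groups of 4 arrays checked (the 9 genes and the named pathway genes, each genotype alone), 1 array lay apart from the other 3 by a share of the group's range above Dixon's 95% critical value, namely 0.878, 0.906, 0.841 and 0.941 in the order given here. Chance gives this in about 1 in 20 groups. None of the 4 concerned the 9 Notch receptor, ligand and Hey genes. Rbpj was 8.35 in mgR611, against 8.71 to 8.76 in the other Fbn1mgR/mgR arrays. Neurl3 was 7.35 in mgR611, against 8.41 to 8.52 in the other Fbn1mgR/mgR arrays, and 7.35 in WT676, against 6.91 to 6.98 in the other wild-type arrays. Dtx4 was 6.97 in mgR612, against 6.46 to 6.49 in the other Fbn1mgR/mgR arrays.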

How the results depend on the processing

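Over 22 alternatives, Notch3 was above wild-type in each of the 21 that tested it, and Hey2 was below wild-type and short of the threshold in all 22. Notch3 lost its call in 8 of the 21. Alternatives that change only the variance or the filter return the same difference. Because the genotypes did not overlap for Notch3, leaving 1 array out could not reverse its sign. The number of members higher in Fbn1mgR/mgR was 0 when only rows above the upper quartile of mean signal (5.77) were tested, since Notch3 has a mean of 5.71, and 0 with the smooth muscle or the macrophage mean as a covariate. It was 0 to 1 when each array was left out. With the macrophage mean, chosen after seeing the data, 0 of 32957 rows passed in limma (before adjustment 1066 higher and 1508 lower, p under 0.05), and Notch3 differed by 0.94 (SE 0.533, limma adjusted p = 0.675). Over the alternatives, the limma adjusted p ranged from 0.0102 to 0.675 for Notch3 and from 0.140 to 0.70 for Hey2. Over all rows, 507 were higher and 184 lower, against 339 and 99 with no filter, 627 and 261 without an intensity trend, 293 and 77 with the endothelial mean, 181 and 38 with the smooth muscle mean, and 272 to 524 and 66 to 146 with each array left out. No member was lower under any alternative. The number of other pathway genes called was 2 without an intensity trend (with Rbpj), and 2 with array weights, above the upper quartile, over single-symbol rows and after quantile normalization (with Neurl3). It was 0 with the endothelial or the macrophage mean, and 1 to 2 with each array left out (Neurl3 passed without mgR611, and Snai1, whose wild-type signals were below the limit for testing, without mgR612 at a limma adjusted p of 0.0296).

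Members that did not pass changed sign under some alternatives, for which the cause was not tested. Jag1 was at 0.0032 with array weights, 0.45 with the endothelial and 0.16 with the smooth muscle mean. Notch1 and Notch4 were at 0.089 and 0.0027 with the endothelial mean. Notch2, Dll4 and Hey1 were at 0.12, -0.051 and -0.22 with the smooth muscle mean. Notch4, Dll4 and Hey1 were at 0.23, -0.78 and -1.95 with the macrophage mean. Their SEs were 0.542, 0.594 and 2.72 with it, against 0.106, 0.126 and 0.528 in the main fit. The macrophage mean separated the genotypes, so these estimates are imprecise and are not read as reversals. With each array left out, the ranges were -0.27 to 0.021 for Notch1, -0.39 to 0.088 for Notch2, -0.091 to 0.011 for Notch4, -0.41 to 0.18 for Jag1, -0.027 to 0.13 for Dll4 and -0.46 to 0.47 for Hey1. No paired analysis was possible because the genotypes share no replicate numbers.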
